A study of Mus musculus with 8 samples.

Results

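This section describes 10 genes of STAT3 and gp130 cytokine signalling among the 15948 genes measured in mouse kidney, and all 10 were in the table. They were listed by name for their role: the transcription factors Stat3, Cebpd and Cebpb, the receptor chains Il6st (gp130), Osmr, Lifr and Il6ra, the feedback inhibitor Socs3, and the targets Pim1 and Bcl3. The genes were chosen by name, with the earlier fold changes and adjusted p-values of this same comparison in view. Their group differences are therefore a description, and each adjusted p only places a gene within a fit over all 15948 genes.

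The samples were 3 kidneys labelled Arhgef11Sglt2 DOCA and 5 kidneys labelled Sglt2Cre DOCA. Arhgef11 encodes a guanine nucleotide exchange factor, and the title places its knockout in the proximal tubule. The promoter of Sglt2, a sodium-glucose cotransporter, drives Cre recombinase in cells of that segment. Both groups carry the DOCA label (in hypertension research, the mineralocorticoid deoxycorticosterone acetate), and no kidney without it was analysed here. The labels used here give no strain, sex, age, dose or duration. Whether each sample was a different mouse is not said either, and p-values here cover only sample-to-sample spread, which may be technical.

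Cytokines of the interleukin-6 family signal through receptor complexes that contain gp130, the chain they share. Janus kinases on gp130 phosphorylate STAT3, which enters the nucleus and raises transcription of acute phase genes, of C/EBP factors and of its own inhibitor SOCS3. In injured kidney, tubule cells are known to activate STAT3 and to make acute phase proteins.

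Promoter sequence was available from RefSeq (build GRCm38.p6, not the GRCm39 of the submitters' notes) for 9 of the 10 genes, all but Cebpd, in 11 windows from 250 bases before to 50 bases after a start site. The STAT motif TTCNNNGAA, which reads the same on both strands, was in 1 of the 11 windows, that of Socs3, and in 8.30% of all 32851 promoter windows of 300 bases. It lay at positions -154 to -146 from the start site, as TTCTTAGAA. The C/EBP motif TTGCNNAA, searched on both strands, was in 0 of the 11 windows and in 10.8% of all windows. A match describes the letters only. The windows below belong to the 3 nuclear or inhibitory genes with an entry whose levels did not overlap between the groups. Stat3 is at chr11:100939491-100939790 (minus strand), Cebpb at chr2:167688665-167688964 (plus strand) and Socs3 at chr11:117969317-117969616 (minus strand). Capitals mark the STAT motif.
Stat3: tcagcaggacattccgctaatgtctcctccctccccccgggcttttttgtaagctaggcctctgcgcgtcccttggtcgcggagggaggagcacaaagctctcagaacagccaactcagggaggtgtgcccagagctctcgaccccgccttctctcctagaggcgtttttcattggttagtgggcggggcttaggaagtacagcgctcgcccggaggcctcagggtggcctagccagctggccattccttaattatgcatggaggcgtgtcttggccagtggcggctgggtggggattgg
Cebpb: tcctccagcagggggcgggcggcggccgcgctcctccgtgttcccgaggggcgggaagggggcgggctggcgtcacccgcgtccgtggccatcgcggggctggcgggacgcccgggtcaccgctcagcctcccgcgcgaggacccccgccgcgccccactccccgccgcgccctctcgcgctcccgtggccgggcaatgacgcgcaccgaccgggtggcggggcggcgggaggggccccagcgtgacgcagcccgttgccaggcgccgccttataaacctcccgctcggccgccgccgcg
Socs3: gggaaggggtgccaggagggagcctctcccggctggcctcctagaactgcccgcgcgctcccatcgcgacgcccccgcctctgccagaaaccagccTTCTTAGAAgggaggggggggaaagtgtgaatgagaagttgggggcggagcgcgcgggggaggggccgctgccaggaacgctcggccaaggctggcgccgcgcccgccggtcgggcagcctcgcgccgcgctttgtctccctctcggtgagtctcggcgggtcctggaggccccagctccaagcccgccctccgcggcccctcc

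Levels are normalized counts, recovered from the deposited log2 values, and log2 differences and their errors are on the deposited scale, which compresses changes of low genes. Estimated depth was about 51329300 to 57926400 reads in the Arhgef11Sglt2 DOCA libraries and 33063000 to 59460100 in the Sglt2Cre DOCA libraries. The fit over all genes called 354 of 15948 at an adjusted p of 0.05, but 1334 without replicate 1 of the Arhgef11Sglt2 DOCA group, 45 without its replicate 3 and 24 without control replicate 4. On the first principal component, replicate 1 of the Arhgef11Sglt2 DOCA group lay nearest to the controls and replicate 3 farthest. Arhgef11 itself averaged 3587 ± 564 normalized counts in Arhgef11Sglt2 DOCA kidneys and 3679.5 ± 162 in Sglt2Cre DOCA kidneys (SD, n = 3 and 5; limma adjusted p = 0.834), so whole kidney did not check the label, and directions below refer to libraries as labelled. Kidney markers were abundant. The 8 proximal tubule markers summed to 235492 to 360372 normalized counts in Arhgef11Sglt2 DOCA libraries and 425078 to 480623 in Sglt2Cre DOCA libraries. In limma 4 of the 8 were lower, where 1.59% of all genes were lower. In bulk samples such as these, fewer cells of a type and less RNA per cell cannot be told apart.

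All 10 genes had a positive log2 difference, with a median of 0.36, where the median of all genes was -0.01. The direction of Il6st, Lifr and Bcl3 turned when single libraries were left out or within the higher of the ranges of library numbers given below, and that of Bcl3 also with library weights (-0.05). Stat3 and Cebpd passed an adjusted p of 0.05 in limma, both higher, and 8 genes did not pass. Over all genes 2.22% passed in either direction and 0.627% were higher. In 6 of the 10 genes (Stat3, Cebpd, Cebpb, Osmr, Il6ra and Socs3) every Arhgef11Sglt2 DOCA library lay above every Sglt2Cre DOCA library, as in 6.20% of all genes, and in 0 it lay below, as in 8.14% (14.3% in either direction). At an adjusted p of 0.1 there were 4 genes (6.51% of all), and at an unadjusted p under 0.05 there were 6 (21.1% of all). The list was chosen with this comparison in view, so nothing is read from these shares.

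**Figure D1:**
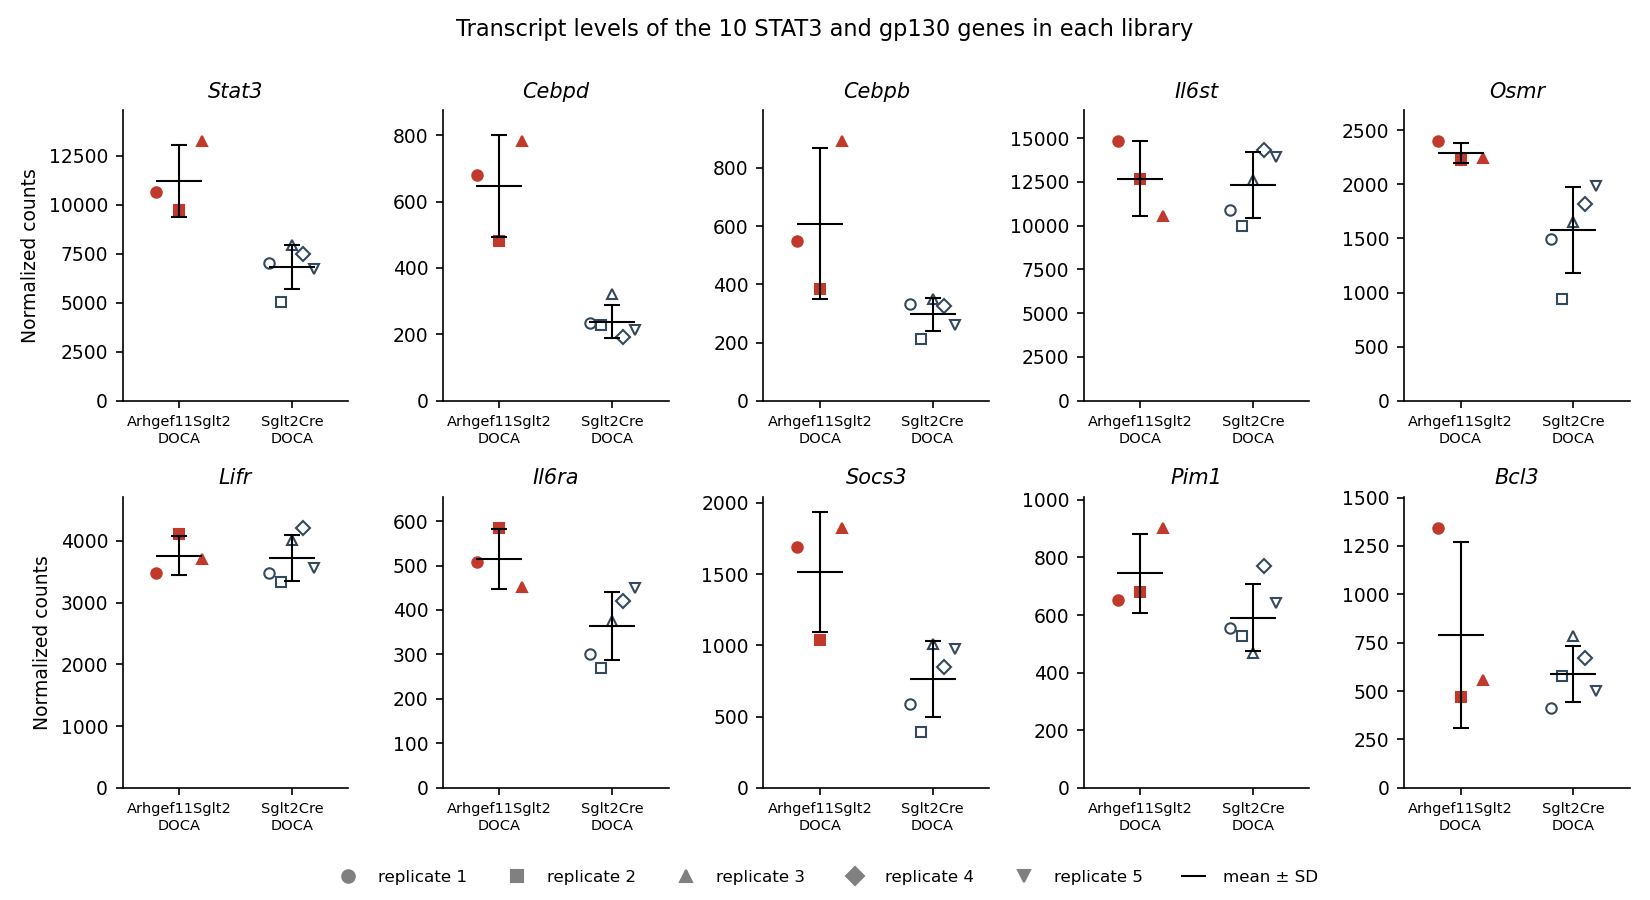
Normalized counts (vertical axes, from 0) of each of the 10 genes in the 3 Arhgef11Sglt2 DOCA libraries (filled, left) and the 5 Sglt2Cre DOCA libraries (open, right), with mean and SD. The groups are apart for Stat3, Cebpd, Cebpb, Osmr, Il6ra and Socs3 and overlap for Il6st, Lifr, Pim1 and Bcl3.

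Stat3, the transcription factor at the centre of the pathway, had 10651, 9731 and 13240.0 normalized counts in replicates 1, 2 and 3 of the Arhgef11Sglt2 DOCA group. The Sglt2Cre DOCA replicates 1 to 5 had 7007, 5013, 7947, 7503 and 6719. The lowest Arhgef11Sglt2 DOCA library was 1.22 times the highest control library. The means were 11207 ± 1820 in Arhgef11Sglt2 DOCA kidneys and 6838 ± 1123 in Sglt2Cre DOCA kidneys (SD), a 1.64-fold ratio, and the log2 difference was 0.67 (SE 0.14, 95% interval 0.35 to 0.996, limma adjusted p = 0.0467). The call rested on single libraries. The limma adjusted p was 0.176 without replicate 3 of the Arhgef11Sglt2 DOCA group, and 0.0831, 0.0665, 0.0952 and 0.0983 without control replicates 1, 3, 4 and 5.

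Cebpd encodes C/EBP delta, a transcription factor induced in the acute phase response. It had 679, 481 and 782 normalized counts in the Arhgef11Sglt2 DOCA replicates 1 to 3. The Sglt2Cre DOCA replicates 1 to 5 had 234, 228, 323, 193 and 212. The lowest library of the first group was 1.49 times the highest control, replicate 3. The ratio of means was 2.72 (647 ± 153 in Arhgef11Sglt2 DOCA and 238 ± 49.95 in Sglt2Cre DOCA kidneys), the widest among the 10 genes, with a log2 difference of 0.73 (SE 0.10, 95% interval 0.50 to 0.96, limma adjusted p = 0.0168). The adjusted p was 0.0535 without replicate 3 of the Arhgef11Sglt2 DOCA group and 0.0565 without control replicate 4.

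Cebpb encodes C/EBP beta, which binds the same motif as C/EBP delta and was first known as a nuclear factor of interleukin-6 signalling. Its values were 549, 384 and 892 normalized counts in the Arhgef11Sglt2 DOCA replicates and 333, 212 (replicate 2), 350.1, 326 and 261 in the Sglt2Cre DOCA replicates. Replicate 3 of the first group stood highest, and its replicate 2 was 1.096 times the highest control. The log2 difference was 0.52 (SE 0.14) with a limma adjusted p of 0.0898, a 2.05-fold ratio of means. Without replicate 2 of the Arhgef11Sglt2 DOCA group the adjusted p was 0.0346, the only library whose absence brought it under 0.05. Without replicate 3 of that group the log2 difference was 0.33 with a limma adjusted p of 0.261, and with array weights it was 0.29 with an adjusted p of 0.177.

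The 4 receptor chains did not pass the threshold. Osmr, the oncostatin M receptor chain, had 2400, 2222 and 2247 normalized counts in the Arhgef11Sglt2 DOCA replicates. Its values in the Sglt2Cre DOCA replicates 1 to 5 were 1493, 943, 1655, 1815 and 1983. The first group varied little, with a highest value 1.08 times its lowest, while the controls spread 2.10-fold. The ratio of means was 1.45 and the log2 difference 0.45 (SE 0.15, limma adjusted p = 0.140).

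Il6ra, the interleukin-6 receptor chain, had 508, 584 and 451 normalized counts in the Arhgef11Sglt2 DOCA replicates and 301, 269, 376, 419 and 450 in the Sglt2Cre DOCA replicates. Replicate 3 of the first group and control replicate 5 were nearly level, and the groups did not overlap by a ratio of 1.002. Its ratio of means was 1.42 and its log2 difference 0.27 (SE 0.09, limma adjusted p = 0.149).

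Il6st, the shared chain gp130, had 14828, 12658 and 10574 normalized counts in the Arhgef11Sglt2 DOCA replicates and 10892, 9978, 12585, 14337 and 13909 in the Sglt2Cre DOCA replicates. The groups overlapped throughout, and the log2 difference was 0.04 (SE 0.14, 95% interval -0.27 to 0.35, limma adjusted p = 0.906). Lifr, the chain for leukemia inhibitory factor, had 3479, 4106 and 3703 normalized counts in the Arhgef11Sglt2 DOCA replicates and 3484, 3332, 4012, 4207 and 3554 in the Sglt2Cre DOCA replicates. These groups also overlapped, with a log2 difference of 0.02 (SE 0.09, 95% interval -0.18 to 0.21, limma adjusted p = 0.936). The intervals leave room for a change of either sign. Leaving out single libraries gave -0.08 to 0.16 for Il6st and -0.04 to 0.07 for Lifr. Il6st was negative without replicate 1 of the Arhgef11Sglt2 DOCA group (-0.08), control replicate 1 (-0.0014) or control replicate 2 (-0.03). Lifr was negative without replicate 2 of the Arhgef11Sglt2 DOCA group (-0.04), control replicate 1 (-0.0023) or control replicate 2 (-0.02).

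Socs3, the STAT3-induced protein that binds gp130 and ends its signal, had 1692, 1037 and 1823 normalized counts in the Arhgef11Sglt2 DOCA replicates. The Sglt2Cre DOCA replicates 1 to 5 had 588, 390.3, 1009.5, 848 and 976. Replicate 2 of the first group was 1.03 times control replicate 3, and replicates 1 and 3 stood well above. The controls themselves spread 2.59-fold, the widest control spread of the 10 genes. The ratio of means was 1.99 (1517 ± 421 in Arhgef11Sglt2 DOCA and 762 ± 266 in Sglt2Cre DOCA kidneys) and the log2 difference 0.71 (SE 0.20, 95% interval 0.25 to 1.16), with a limma adjusted p of 0.0959.

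Pim1, a serine/threonine kinase induced by STAT factors, had 654, 679.5 and 902 normalized counts in the Arhgef11Sglt2 DOCA replicates and 554, 525.5, 467, 770 and 640.1 in the Sglt2Cre DOCA replicates. Control replicate 4 lay above replicates 1 and 2 of the first group, and the log2 difference was 0.21 (SE 0.11, limma adjusted p = 0.302). Bcl3, an atypical I-kappa-B protein that acts with NF-kappa-B in the nucleus, had 1342, 469 and 559 normalized counts in the Arhgef11Sglt2 DOCA replicates and 413, 578, 783, 672 and 500.4 in the Sglt2Cre DOCA replicates. Replicate 1 of the first group was the highest library, and the other two lay within the controls. The ratio of means of 1.34 became 0.872 without that replicate, and the log2 difference of 0.20 (SE 0.21, limma adjusted p = 0.617) became -0.10.

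**Figure D2:**
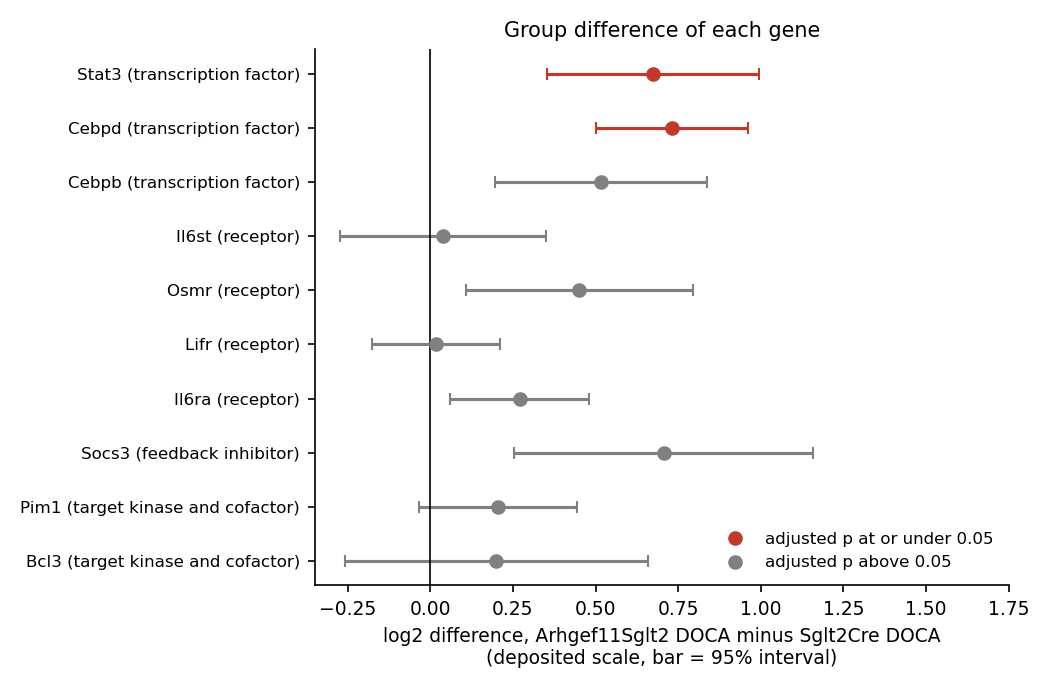
Log2 difference of each gene, Arhgef11Sglt2 DOCA minus Sglt2Cre DOCA, on the deposited scale (points) with 95% intervals (bars) from limma, red where the adjusted p was at or under 0.05. Stat3 (0.67) and Cebpd (0.73) are red, and the intervals of Il6st, Lifr, Pim1 and Bcl3 cross 0.

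The genes did not share one order of libraries. Replicate 3 of the Arhgef11Sglt2 DOCA group was the highest of all 8 libraries for 5 genes (Stat3, Cebpd, Cebpb, Socs3 and Pim1), replicate 1 for Il6st, Osmr and Bcl3, and replicate 2 for Il6ra. Control replicate 2 was the lowest of all 8 for 7 genes: Stat3, Cebpb, Il6st, Osmr, Lifr, Il6ra and Socs3. Over all genes, control replicate 2 was lowest in 17.2% and replicate 3 of the Arhgef11Sglt2 DOCA group highest in 22.4%. Stat3 and Cebpd were both called without control replicate 2, and neither was called without replicate 3 of the Arhgef11Sglt2 DOCA group.

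**Figure D3:**
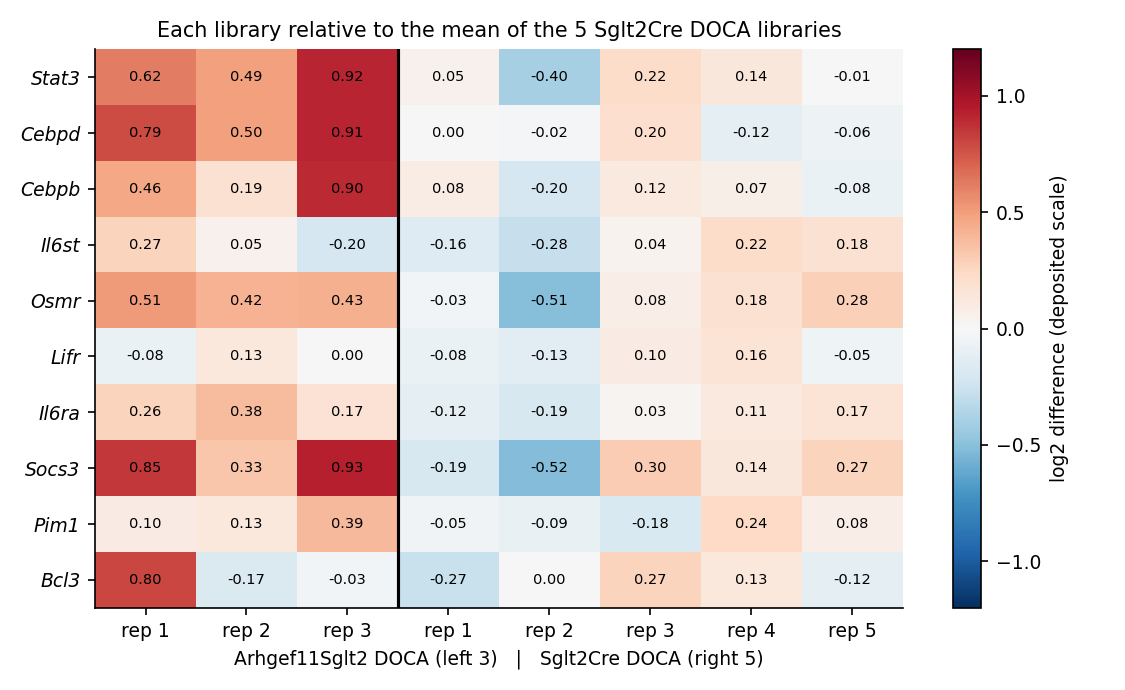
Log2 difference on the deposited scale (color and number) of each gene (rows) in each library (columns) from the mean of the 5 Sglt2Cre DOCA libraries. Stat3, Cebpd, Cebpb, Osmr, Il6ra and Socs3 are positive in all 3 Arhgef11Sglt2 DOCA libraries, and the column of control replicate 2 holds the lowest value of 7 genes.

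The library names carry numbers in a lower range (Arhgef11Sglt2 DOCA replicates 1 and 2, control replicates 1 to 3) and a higher range (Arhgef11Sglt2 DOCA replicate 3, control replicates 4 and 5). What the ranges stand for is not stated. Within the lower and the higher range the log2 difference was 0.60 and 0.85 for Stat3, 0.58 and 1.002 for Cebpd, 0.32 and 0.90 for Cebpb and 0.73 and 0.73 for Socs3. For the receptor chains it was 0.62 and 0.20 for Osmr, 0.41 and 0.03 for Il6ra, 0.29 and -0.40 for Il6st, and 0.06 and -0.06 for Lifr. Pim1 had 0.22 and 0.23, and Bcl3 had 0.32 and -0.03. The higher range holds 1 Arhgef11Sglt2 DOCA library and no test was run on it, and the lower range alone called 0 of all genes in limma (1591 at an unadjusted p under 0.05).

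Per kilobase of transcript (the median length of a gene's coding transcripts in GENCODE M21), Il6st had the highest level of the 10 genes in both groups, with 4567 ± 766 normalized counts per kilobase in Arhgef11Sglt2 DOCA and 4442 ± 678 in Sglt2Cre DOCA kidneys. Stat3 followed with 3012 ± 489 per kilobase in Arhgef11Sglt2 DOCA and 1837 ± 302 in Sglt2Cre DOCA kidneys. Lifr was next with 1109 ± 93.6 in Arhgef11Sglt2 DOCA and 1096 ± 109.9 in Sglt2Cre DOCA kidneys (SD, n = 3 and 5 throughout). The ranges of Osmr, Pim1, Bcl3 and Socs3 overlapped in the Sglt2Cre DOCA libraries, where their means ran from 332 down to 299 per kilobase, so their order there is not resolved. In Arhgef11Sglt2 DOCA kidneys Socs3 had the highest mean of these 4, 595 ± 165 per kilobase. Its range overlapped those of Osmr, Pim1 and Bcl3 there, so that order is not resolved either. Cebpb had 404 ± 172 per kilobase in Arhgef11Sglt2 DOCA and 197 ± 38.4 in Sglt2Cre DOCA kidneys. Its range overlapped those of Osmr, Pim1, Bcl3 and Socs3 in the Arhgef11Sglt2 DOCA libraries and those of Osmr, Bcl3 and Socs3 in the Sglt2Cre DOCA libraries. Cebpd had 173 ± 40.8 per kilobase in Arhgef11Sglt2 DOCA and 63.5 ± 13.3 in Sglt2Cre DOCA kidneys, and Il6ra, the lowest mean, had 85.9 ± 11.2 in Arhgef11Sglt2 DOCA and 60.6 ± 12.8 in Sglt2Cre DOCA kidneys. The ranges of Cebpd and Il6ra overlapped in the Sglt2Cre DOCA libraries but not in the Arhgef11Sglt2 DOCA libraries. The lengths come from another build and annotation than the counts, so these levels are approximate. They were 2778 bases for Il6st (median of 8 transcripts), 3721.5 for Stat3 (4 transcripts) and 3392 for Lifr (5 transcripts). Which transcripts the kidneys expressed was not tested. A longer Il6st transcript would lower its level, so the order of Il6st, Stat3 and Lifr rests on these lengths.

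After each group's mean was taken off, the genes most like Socs3 over the 8 libraries included Birc3 and Junb, each with a Pearson coefficient of 0.96, out of 15362 genes compared. Those most like Stat3 were Jup (0.98), Adamts1 and Adamts4 (both 0.97). Socs3 and Stat3 had 0.83 with each other. By this measure Stat3 ranked 165 among the genes like Socs3, and Socs3 ranked 216 among those like Stat3. The coefficients of the other members with Stat3 ran from 0.09 (Bcl3) to 0.85 (Cebpb). With 8 points that share depth and library, these coefficients are descriptions.

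The rest of the pathway was described with a list of 63 measured genes in 6 roles. In limma 8 were higher (Clcf1, Myc, Fosl2, Nfkbiz, Fga, Fgb, Fgg and Lcn2), 1 was lower (Il11ra1) and 54 did not pass, where 0.627% of all genes were higher and 1.59% lower. The median log2 difference was 0.14, where that of all genes was -0.01. Single libraries moved this count. There were 3 calls without replicate 3 of the Arhgef11Sglt2 DOCA group (Serpina3n, Fgb and Il11ra1), 1 without control replicate 4 (Il11ra1), 2 without control replicate 5 (Lcn2 and Il11ra1), and 5 without control replicate 1 or 2. Il11ra1 was called with each of the 8 libraries left out.

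**Figure D4:**
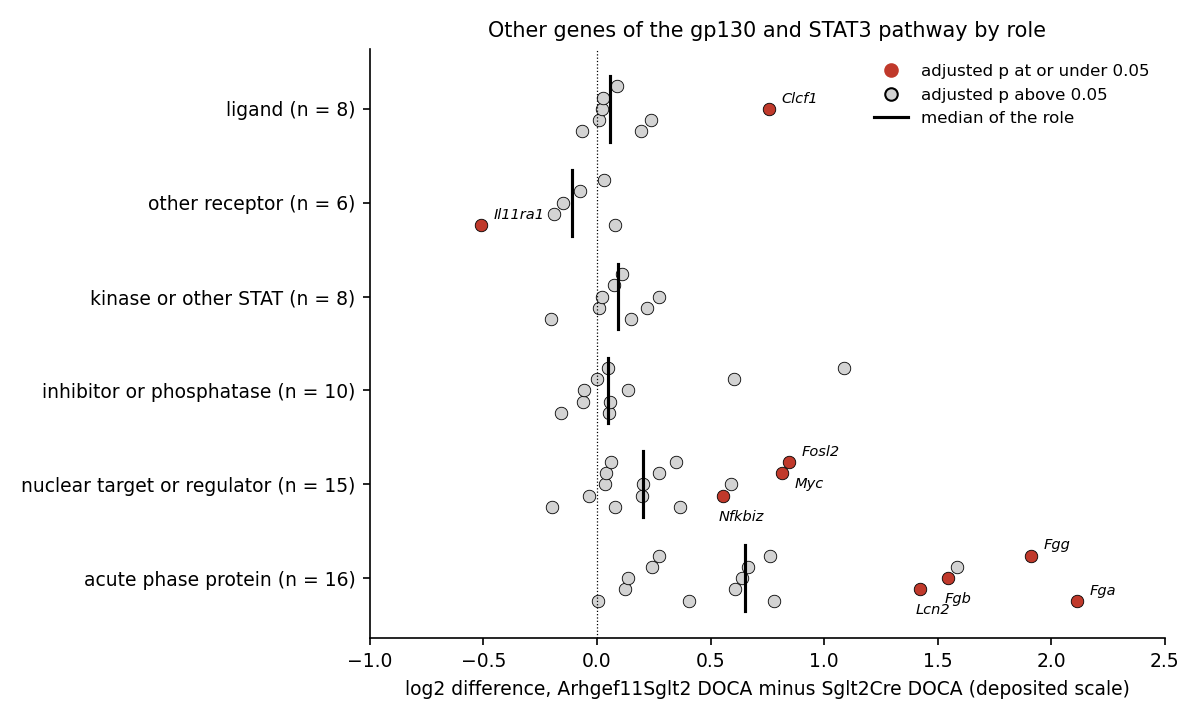
Log2 difference on the deposited scale (horizontal axis, Arhgef11Sglt2 DOCA minus Sglt2Cre DOCA) of each of the 63 other pathway genes by role, red and named where the limma adjusted p was at or under 0.05, with each role's median as a bar. Clcf1 and Il11ra1 stand apart from the other ligands and receptors, and the acute phase role has the highest median, 0.65.

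Of 8 ligand genes measured, only Clcf1 passed. Clcf1 encodes cardiotrophin-like cytokine, which signals through the receptor chains CNTFR, LIFR and gp130. It had 1135, 873 and 1427 normalized counts in the Arhgef11Sglt2 DOCA replicates. The Sglt2Cre DOCA replicates 1 to 5 had 501, 371, 622, 479.5 and 499. Its lowest Arhgef11Sglt2 DOCA value was 1.40 times the highest control, replicate 3. The ratio of means was 2.32 and the log2 difference 0.76 (SE 0.12, limma adjusted p = 0.0191). The adjusted p was 0.0658 without replicate 3 of the Arhgef11Sglt2 DOCA group, 0.0589 without control replicate 4 and 0.0521 without control replicate 5. Osm and Il27 were not analysed here, and the other 7 ligands had limma adjusted p-values from 0.457 upward. Il6 was low, with 13.2 to 31.7 normalized counts in Arhgef11Sglt2 DOCA and 8.02 to 43.6 in Sglt2Cre DOCA libraries.

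Of 6 other receptor genes, Il11ra1 was the one called. It encodes the interleukin-11 receptor chain, which pairs with gp130. It had 1612, 1788 and 1577 normalized counts in the Arhgef11Sglt2 DOCA replicates. The Sglt2Cre DOCA replicates 1 to 5 had 2574, 2844, 2514, 2470 and 2492. Every library of the first group was far below every control, and both groups were tight. It was 1.55-fold lower in Arhgef11Sglt2 DOCA kidneys by the ratio of means, and the log2 difference was -0.51 (SE 0.07, 95% interval -0.66 to -0.36, limma adjusted p = 0.0147). The adjusted p ran from 0.0124 to 0.0490 with single libraries left out. The mouse genome holds near-identical copies of this gene, so its reads may be split between copies and its level is uncertain.

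None of the 8 kinase and other STAT genes passed. Stat2, a factor of interferon signalling, had the smallest p of them. It had 1885, 1826 and 1889 normalized counts in the Arhgef11Sglt2 DOCA replicates and 1566, 1105, 1574, 1534 and 1588 in the Sglt2Cre DOCA replicates, with a limma adjusted p of 0.146. None of the 10 inhibitor and phosphatase genes passed either. Socs2, an inhibitor induced by growth hormone through STAT5, had 1307, 2799 and 4077 normalized counts in the Arhgef11Sglt2 DOCA replicates and 740, 933, 1526, 851 and 727 in the Sglt2Cre DOCA replicates. Replicate 1 of the first group lay below control replicate 3. The ratio of means was 2.85 and the log2 difference 1.09 (SE 0.27, limma adjusted p = 0.0692). It was 1.45 without replicate 1 of the Arhgef11Sglt2 DOCA group, with a limma adjusted p of 0.0108, and 0.78 without replicate 3, with an adjusted p of 0.245. In the lower range of library numbers alone it was 0.68, with a limma adjusted p of 0.515.

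Of 15 nuclear targets and regulators, 3 were higher in limma: Fosl2, Myc and Nfkbiz. Fosl2, an AP-1 subunit, had 2783, 2788 and 3984 normalized counts in the Arhgef11Sglt2 DOCA replicates and 1537, 1078, 1700.2, 1673 and 1733 in the Sglt2Cre DOCA replicates. The lowest value of the first group was 1.61 times the highest control, and the log2 difference was 0.85 (SE 0.14, limma adjusted p = 0.0219). Its adjusted p was 0.0704 without replicate 3 of the Arhgef11Sglt2 DOCA group, 0.0589 without control replicate 4 and 0.0513 without control replicate 5. Nfkbiz, a nuclear I-kappa-B protein, had 1769, 1339 and 1971 normalized counts in the Arhgef11Sglt2 DOCA replicates and 1006, 798, 1201, 1050.2 and 938 in the Sglt2Cre DOCA replicates. Its log2 difference was 0.55 (SE 0.11, limma adjusted p = 0.0430), and the adjusted p was above 0.05 without replicate 3 of the Arhgef11Sglt2 DOCA group (0.164) and without control replicates 1 to 5 (0.0785, 0.0603, 0.0524, 0.0971 and 0.0940). Myc, a transcription factor of growth and a known STAT3 target, had 1166, 924 and 1827 normalized counts in the Arhgef11Sglt2 DOCA replicates and 670.4, 358, 619, 598 and 453.5 in the Sglt2Cre DOCA replicates. Its log2 difference was 0.81 (SE 0.16, limma adjusted p = 0.0417), with an adjusted p above 0.05 without replicate 3 of the Arhgef11Sglt2 DOCA group (0.118) and without control replicates 1 to 5 (0.0569, 0.0577, 0.0723, 0.0929 and 0.0921).

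**Figure D5:**
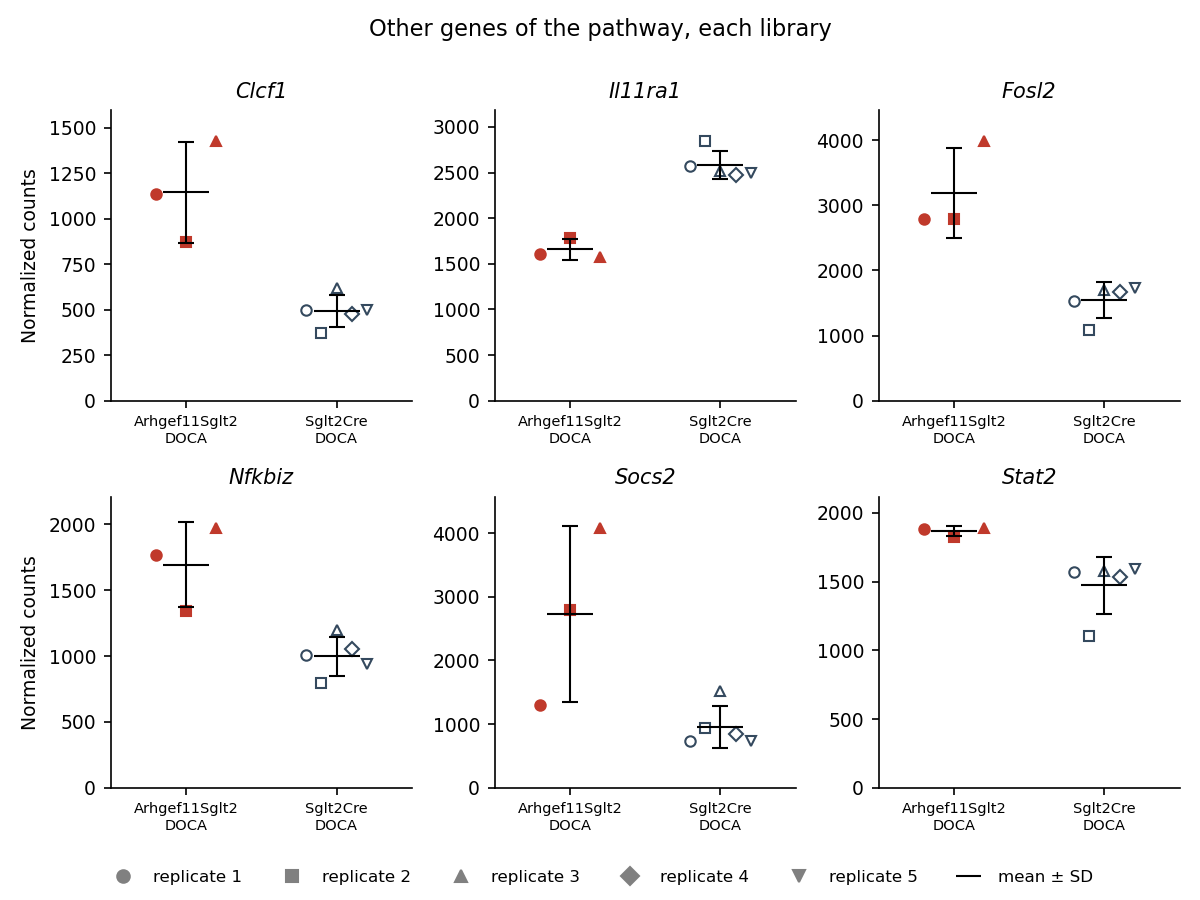
Normalized counts (vertical axes, from 0) of 6 other pathway genes in the 3 Arhgef11Sglt2 DOCA libraries (filled, left) and the 5 Sglt2Cre DOCA libraries (open, right), with mean and SD. Clcf1, Fosl2, Nfkbiz and Stat2 are higher and Il11ra1 lower in every Arhgef11Sglt2 DOCA library than in any control, while Socs2 overlaps.

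Of 16 acute phase protein genes measured, 4 were higher in limma (Fga, Fgb, Fgg and Lcn2) and 12 did not pass. Over all genes 0.627% were higher. All 16 had a positive log2 difference, with a median of 0.65, where 7647 of all 15948 genes were positive. The lowest was 0.0027 for Orm1, whose ratio of means was below 1 (0.578). The fibrinogen chains and Lcn2, which encodes lipocalin-2, had log2 differences of 2.11 (Fga), 1.55 (Fgb), 1.91 (Fgg) and 1.42 (Lcn2). Without replicate 3 of the Arhgef11Sglt2 DOCA group the limma adjusted p was 0.0581 for Lcn2, 0.0535 for Fga and 0.0534 for Fgg, while Fgb was called. Without control replicate 4 it was 0.0565 for Lcn2 and Fga and 0.0929 for Fgb and Fgg. Of the fits with 1 library left out, Fga also did not pass without control replicate 5 (0.0580), Fgg passed only without control replicate 3 (0.0471), and Fgb passed only without replicate 3 of the Arhgef11Sglt2 DOCA group (0.0481). Fgb also did not pass on a log2 scale with a pseudocount of 1 or 10 (limma adjusted p = 0.0506 and 0.0514).

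Markers of other cells were read beside these results. The 5 injured tubule markers summed to 27850.3, 9227 and 7461 normalized counts in the Arhgef11Sglt2 DOCA replicates 1 to 3 and to 4768 to 8020 in the Sglt2Cre DOCA libraries, and 1 of 5 was higher in limma. Of the 5, Krt20, Sox9 and Cdkn1a were above every control in all 3 Arhgef11Sglt2 DOCA libraries, and Krt20 was the one that passed. Over all genes 6.20% were above every control in this way, and in limma 0.627% were higher and 1.59% lower. Replicate 3, the highest library for Stat3, Cebpd, Cebpb and Socs3, was also the highest of all 8 for Cdkn1a, with 2203 normalized counts. Havcr1, Krt20, Vcam1 and Sox9 were instead highest in replicate 1. Replicate 3 was the lowest of its group for Havcr1, Krt20 and Vcam1, and its Vcam1 (1103) lay below every control (1868 or more). The sum of the 5 markers in replicate 3 was the lowest of the 3 Arhgef11Sglt2 DOCA libraries. Havcr1 was the largest of the 5 in each of these libraries (16766, 4401 and 2916 normalized counts), so the sum largely repeats its order. Sox9 had 892, 406 and 614 normalized counts in replicates 1 to 3. The 5 neutrophil markers measured summed to 392.4 to 633 in Arhgef11Sglt2 DOCA and 179.9 to 402 in Sglt2Cre DOCA libraries, and 1 of 5, Retnlg, was higher. Retnlg was low, with 25.9 to 38.5 normalized counts in Arhgef11Sglt2 DOCA and 2.35 to 17.7 in Sglt2Cre DOCA libraries. S100a8, S100a9 and Csf3r were more abundant and did not pass (limma adjusted p = 0.157, 0.101 and 0.713). The ratios of means of S100a8 and S100a9 were 2.49 and 2.91, and only control replicate 2 overlapped the Arhgef11Sglt2 DOCA libraries. Cxcr2 was low too, with a mean of 28.5 normalized counts in Arhgef11Sglt2 DOCA and 9.61 in Sglt2Cre DOCA libraries. It lay above every control in all 3 Arhgef11Sglt2 DOCA libraries but did not pass (limma adjusted p = 0.0930). All 5 neutrophil markers had a positive log2 difference. Of the 5 B and plasma cell markers 1 was lower, with sums of 248 to 715 in Arhgef11Sglt2 DOCA and 768 to 3227 in Sglt2Cre DOCA libraries.

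None of the markers of macrophages, T cells, endothelium, fibroblasts and pericytes, hepatocytes, thick ascending limb or collecting duct passed in limma. Macrophage markers summed to 5084 to 12672.5 normalized counts in Arhgef11Sglt2 DOCA and 7881 to 9631 in Sglt2Cre DOCA libraries. Those of the thick ascending limb summed to 237511 to 302121 in Arhgef11Sglt2 DOCA and 306207 to 352229 in Sglt2Cre DOCA libraries. The other 5 sums overlapped between the groups. None of the 56 markers measured was at 0 in any library. The part of these cells in the levels of Stat3, Cebpd and the other genes was not tested.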

How the data were processed

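RNA was sequenced from 8 kidneys. The authors deposited log2 values for 15948 genes. DESeq2, Salmon 1.10.0 and the GRCm39 build are named in the submitters' processing notes, without an annotation, a filter or a DESeq2 version. All genes share a lowest value of 8.13, and the values have the shape of a variance-stabilized scale, which was inverted in closed form to normalized counts. Steps between low values gave an estimated depth. Only 31.4% to 54.5% of low values lay within 0.02 steps of a whole number, so no count model was run.

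Groups were compared with limma 3.58.1 (R 4.3.3) on the deposited log2 scale, with group as the term, a mean-variance trend and Benjamini-Hochberg adjustment over all 15948 genes at 0.05. Ratios are of mean normalized counts. The fit was tested on simulated data. Symbols matched for 99.7% of identifiers.

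The members and lists were chosen with earlier results of these data known. Of the pathway list, genes past the threshold and the gene of smallest p in each role are named, with Il6 added for its role and Orm1 after its values were seen. Serpina3n and Cd14 are named where an alternative fit called them, and Junb for its likeness to Socs3. The lists of 63 pathway genes and 56 markers count those measured, of 68 and 58 listed. Alternatives were filters, pseudocounts of 1 and 10, scalings, weights, a replicate block, the library number ranges and leaving out each library. Replicate numbers did not pair the samples. For likeness to Stat3 and to Socs3 the rule took the 3 genes of highest correlation, of which 1 is not reported here.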

Additional observations from a re-analysis of the deposited data

Results flagged for a closer look

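In 3 of 23 sets of 5 Sglt2Cre DOCA values checked, 1 library lay far from the other 4. Chance flags about 1 in 20 such sets. Il11ra1 had 2844 normalized counts in control replicate 2, where the next highest control had 2574. Stat2 had 1105 normalized counts in the same library, where the next lowest control had 1534. Socs2 had 1526 normalized counts in control replicate 3, where the next highest control had 933.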

How the results depend on the processing

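The limma counts were 354 of all genes, 2 of the 10 genes and 9 of the 63 other pathway genes. Leaving out single libraries gave 24 to 1334, 0 to 3 and 1 to 11. With a replicate block the counts were 0, 0 and 0 (2166, 7 and 23 at an unadjusted p under 0.05). The numbers share no labelled source, and the deviations of same-numbered samples had correlations of -0.18, -0.09 and -0.01. The lower range of library numbers alone also gave 0, 0 and 0 (1591, 7 and 16 unadjusted). Array weights gave 874, 2 and 15, and an adjusted p of 0.1 gave 1038, 4 and 16. Scaling to equal totals moved the share of higher calls among all genes to 45.6%, against 28.2% as deposited, and called 2 and 9 of the lists. The filter, both pseudocounts, median centring, the range term and the fit without a trend left all 3 counts within 1.5 times. With either pseudocount, Cd14 was called and Fgb was not. Differences that changed sign were those of Il6st (-0.076, -0.0014 and -0.031) and Lifr (-0.040, -0.0023 and -0.016) without the libraries named above, with leave-one-out ranges of -0.076 to 0.158 and -0.040 to 0.065. Bcl3 changed sign with array weights (-0.048) and without replicate 1 of the Arhgef11Sglt2 DOCA group (-0.10, leave-one-out range to 0.39), and Arhgef11 likewise (0.027 and 0.079). In the higher range of library numbers alone, where no test was run, Il6st (-0.40), Lifr (-0.055), Bcl3 (-0.034) and Arhgef11 (0.034) also had the other sign. The cause was not tested. Depth could be estimated but reads were not recovered, so no counting error is attached to low genes such as Il6.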
